A study of Mus musculus with 2 samples.

Results

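The genes described here are the core of the cellular oxygen sensor: the HIF subunit genes HIF1A, EPAS1, HIF3A and ARNT, the prolyl hydroxylase genes EGLN1, EGLN2 and EGLN3, the asparaginyl hydroxylase gene HIF1AN, and VHL. These 9 genes were taken by symbol from a table of 57011 gene labels, and all 9 were found. The set was chosen on the FPKM of both libraries, with the difference between the tumors in view, so differences of its members are a description and support nothing. RNA had been sequenced from 2 patient-derived xenografts, human gastroenteropancreatic neuroendocrine tumors propagated in athymic nude mice (strain Foxn1nu). One library came from a metastatic tumor in the peritoneal cavity and was compared with one from a primary tumor in the flank. Neither tumor had a treatment in the labels, and both had been excised and dissociated with a kit for mouse tumors before RNA was extracted from the cell pellets. Each group held 1 library, so there is no replicate error and no test, and tumor origin cannot be told apart from graft site. The animals' ages, and whether both tumors came from 1 patient, are not given in the labels.

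When oxygen is present, the EGLN enzymes hydroxylate prolines of the HIF alpha proteins, VHL binds the hydroxylated protein, and the ubiquitin ligase built on VHL marks it for destruction. HIF1AN hydroxylates an asparagine instead, which blocks coactivator binding. When oxygen is scarce, HIF alpha escapes, pairs with ARNT and switches on genes of glycolysis, angiogenesis and pH control, among them EGLN1 and EGLN3 themselves. HIF alpha activity is thus set largely at the protein level, and RNA alone was measured here.

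Values were FPKM as deposited by the authors, a fragment number divided by transcript length and by a library total. FPKM summed to 885319 in the metastatic and 784987 in the primary library, and the number of reads behind them is unknown. Each log2 ratio sets metastatic over primary after 1 FPKM was added to both, so it understates the difference of a low gene, and "2-fold" means a log2 ratio of 1 or more in size. Of 13811 entries with at least 1 FPKM in a library, 9.35% were 2-fold lower or more in the metastatic library and 9.22% were 2-fold higher or more, and the median log2 ratio was 0.03. Scaling bears on this split. With the sums of both libraries made equal, the median was -0.13, with 1029 entries higher and 1813 lower past 2-fold, so 36.2% were higher in place of 49.6%. Log2 ratio also ran with transcript length. The median was 0.30 among genes with the shortest mouse transcripts and -0.23 among those with the longest, when genes were cut into 4 equal length classes. Over 9389 genes, which are no independent replicates, the Spearman coefficient was -0.27. The part of length in the values below was tested only by removing that trend.

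Markers of the labelled tumor type were mostly low. Of 11 neuroendocrine markers measured, 5 reached 1 FPKM in a library, of which 3 were lower past 2-fold and 0 higher. Over all entries 9.35% were lower and 9.22% higher, and 5 genes are few. The 11 summed to 6.09 FPKM in the metastatic and 30.0 in the primary tumor, most of it in the primary tumor from PCSK1, a prohormone convertase, at 2.74 (metastatic) and 19.9 (primary). The granule genes SCG2 and CHGB stood at 0.340 (metastatic) and 2.62 (primary), and at 0.336 (metastatic) and 1.64 (primary). CHGA, SCG5 and PCSK2 were listed at 0 in both libraries, which may also be a failed estimate, as described below. ENO2 was found only in a merged locus and left out. SYP stood at 1.96 FPKM in the metastatic and 1.63 in the primary tumor, and INSM1 at 0.271 (metastatic) and 3.54 (primary). The epithelial marker EPCAM stood at 85.5 FPKM in the metastatic and 62.5 in the primary tumor.

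Of the 9 genes, EGLN3, HIF3A and ARNT, which is 3, passed 2-fold on the lower side in the metastatic tumor, 0 passed it on the higher side and 6 lay within it. Beside these counts stand the 9.35% and 9.22% of all entries, from which nothing is read because the same contrast chose the genes. All 9 reached 1 FPKM in a library, and 8 did so in both, the exception being EGLN3. The main pattern was unequal: the hydroxylase EGLN3 stood below 1 FPKM in the metastatic tumor, while its paralog EGLN1 was higher there by less than 2-fold. In bulk RNA, fewer cells of a type and less RNA per cell cannot be told apart.

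**Figure D1:**
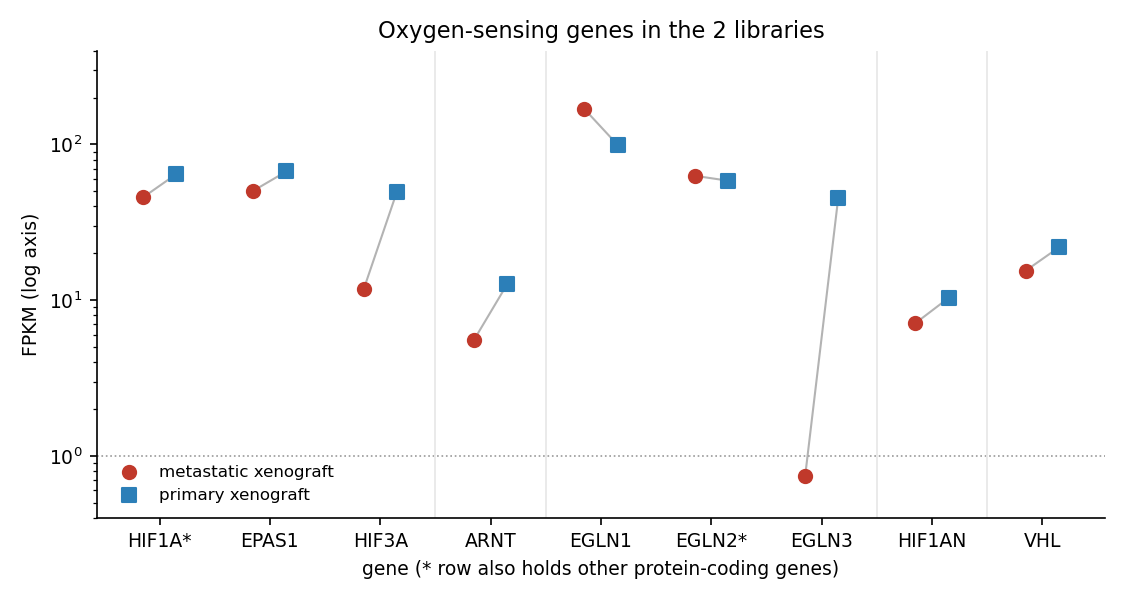
FPKM of each of the 9 genes on a log axis, with the metastatic xenograft as circles and the primary xenograft as squares, 1 library each; the dotted line marks 1 FPKM. EGLN3 lies at 0.741 FPKM in the metastatic and 45.4 in the primary tumor, while EGLN1 and EGLN2 are the only genes whose circle lies above the square, for EGLN2 by a margin that turns round when the sums of the libraries are made equal.

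The HIF alpha subunits are the oxygen-regulated side of the transcription factor and differ in their targets. HIF1A, the broadly expressed subunit best known for control of glycolysis, stood at 45.7 FPKM in the metastatic and 64.4 in the primary tumor, a log2 ratio of -0.49. Its row also holds SNAPC1, a subunit of the complex that activates transcription of small nuclear RNA genes, so the 2 genes cannot be separated in that value. EPAS1, which encodes HIF-2 alpha and is known for high expression in endothelium and for control of erythropoietin, stood at 50.5 (metastatic) and 67.2 FPKM (primary), a log2 ratio of -0.41. Both genes were lower in the metastatic tumor by less than 2-fold. EPAS1 had a row of its own, and the level of EPAS1 over HIF1A was 1.10 in the metastatic and 1.04 in the primary library, with SNAPC1 inside the HIF1A value. The antisense RNA HIF1A-AS1 stood at 0.0937 FPKM in both libraries, and HIF1A-AS3 was listed at 0 in the metastatic and stood at 0.709 FPKM in the primary tumor.

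HIF3A differed more. Its products include short forms that can oppose the other alpha subunits, and its transcription is known to respond to hypoxia. HIF3A stood at 11.8 FPKM in the metastatic tumor, against 49.5 in the primary tumor, a log2 ratio of -1.98. Of all entries, 1.91% had a lower ratio. HIF3A stood at 0.257 of the HIF1A level in the metastatic and 0.769 in the primary library. The table gives 1 value for the gene, so its long and short forms were not separated.

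ARNT, the constitutive partner that every HIF alpha subunit needs to bind DNA, stood at 5.57 FPKM in the metastatic and 12.7 in the primary tumor. Its log2 ratio of -1.06 was just past 2-fold, and it was -0.99 with the length trend removed. ARNT was the scarcer side of the dimer at the RNA level in both tumors. It amounted to 5.16% of the summed HIF alpha FPKM in the metastatic and 6.99% in the primary library. Its paralog ARNT2 was low in both, at 0.0820 FPKM in the metastatic and 0.114 in the primary tumor.

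Among the prolyl hydroxylases, EGLN1 encodes PHD2, regarded as the main brake on HIF-1 alpha in well-oxygenated cells. EGLN1 had 169 FPKM in the metastatic and 99.5 in the primary tumor, a log2 ratio of 0.76, and was the most abundant of the 9 genes in both. Its row also holds the clone name AL445524.2. EGLN2, or PHD1, which hypoxia is not known to induce, had 62.9 FPKM in the metastatic and 58.5 in the primary tumor, a log2 ratio of 0.10. That small difference turned to -0.07 after rescaling to the same sum and to -0.08 without the length trend, so it has no stable direction. The EGLN2 row also holds RAB4B, MIA, readthrough transcripts and a clone name, and its value belongs to that locus as a whole.

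EGLN3, or PHD3, is strongly induced by HIF in many cell types and has been tied to neuronal apoptosis after growth factor withdrawal. It had 0.741 FPKM in the metastatic tumor, against 45.4 in the primary tumor, which is 0.0163 of the primary level. Of the 13811 entries, 18 had a log2 ratio below its -4.74. In order of level, EGLN3 was the last of the 9 genes in the metastatic tumor and the sixth in the primary tumor. Its antisense RNA EGLN3-AS1 was listed at 0 in the metastatic and stood at 0.388 FPKM in the primary tumor. The processed copy EGLN3P1 was listed at 0 in both. EGLN1P1, a copy of EGLN1 merged with SCAND2P, stood at 3.21 (metastatic) and 5.17 FPKM (primary). How fragments were shared between copies and their parent genes is not given in the sources used here.

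HIF1AN, also called FIH, had 7.12 FPKM in the metastatic and 10.3 in the primary tumor, a log2 ratio of -0.48. VHL, the substrate receptor lost in most clear cell kidney cancers, had 15.5 (metastatic) and 21.8 FPKM (primary), a log2 ratio of -0.47. HIF1A, EPAS1, HIF1AN and VHL thus lay close together, all lower by less than 2-fold. With the length trend removed, HIF1A, EPAS1 and HIF1AN lay between -0.30 and -0.20, and VHL at -0.52.

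**Figure D2:**
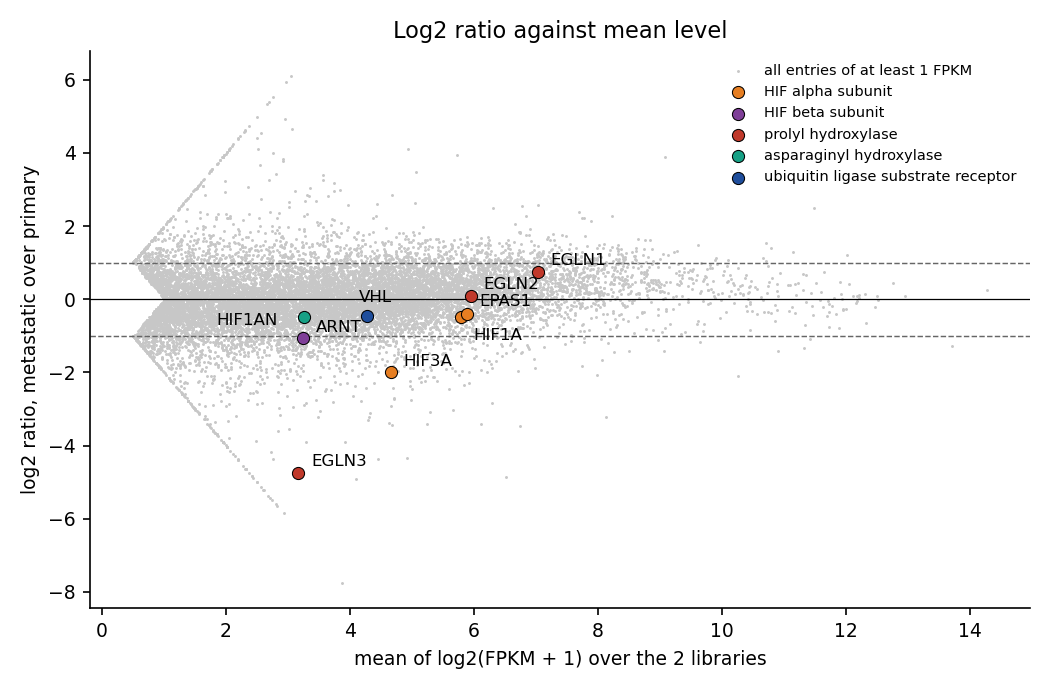
Log2 ratio, metastatic over primary, against the mean of log2(FPKM + 1) over the 2 libraries, with each of the 13811 entries as a grey point and the 9 genes coloured by role; dashed lines mark 2-fold. EGLN3 at -4.74 and HIF3A at -1.98 lie below most entries of similar level, and EGLN1 at 0.76 lies above 0.

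The sum of the HIF alpha subunits was lower in the metastatic tumor, while that of the hydroxylases was close. The alpha subunits summed to 108 FPKM in the metastatic and 181 in the primary tumor, a log2 ratio of -0.74. HIF3A made up 51.6% of that difference. The prolyl hydroxylases summed to 233 FPKM in the metastatic and 204 in the primary tumor, a log2 ratio of 0.19, or 0.019 with the sums of both libraries made equal. HIF alpha over hydroxylase was 0.464 in the metastatic and 0.890 in the primary library. On the log2(FPKM + 1) scale this is -1.10 in the metastatic and -0.17 in the primary library, a difference of -0.93, short of 2-fold. Ratios within a library, without the added 1 FPKM, do not depend on how the libraries were scaled to each other. HIF1A and EGLN2 share rows with other genes, and without both the difference was -1.12, past 2-fold. With HIF1A and EPAS1 alone set against the hydroxylases, HIF3A left out, it was -0.64.

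Within the hydroxylases, the makeup differed more than the sum. EGLN3 held 0.319% of the hydroxylase sum in the metastatic and 22.3% in the primary tumor. EGLN1 held 72.6% (metastatic) and 48.9% (primary), and EGLN2 27.1% (metastatic) and 28.8% (primary). The EGLN2 value includes RAB4B and MIA, so each share depends on them. With EGLN2 left out, EGLN3 held 0.437% of the sum in the metastatic and 31.4% in the primary tumor. EGLN1 then held 99.6% (metastatic) and 68.6% (primary). EGLN1 was higher in the metastatic tumor by 69.3 FPKM, which is more than the 44.7 FPKM by which EGLN3 was lower. EGLN3 stood at 0.439% of the EGLN1 level in the metastatic tumor, against 45.7% in the primary tumor. On the log2(FPKM + 1) scale EGLN3 over EGLN1 was -6.61 in the metastatic and -1.11 in the primary library, a difference of -5.49. Among the alpha subunits, HIF3A held 10.9% of the sum in the metastatic and 27.3% in the primary tumor, HIF1A 42.3% (metastatic) and 35.6% (primary), and EPAS1 46.7% (metastatic) and 37.1% (primary).

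**Figure D3:**
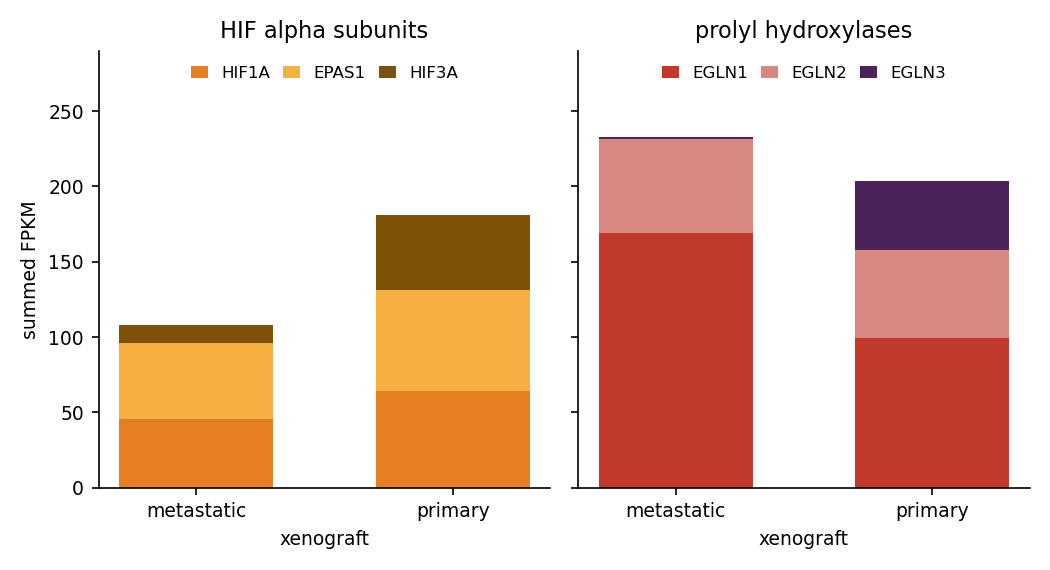
Stacked FPKM of the HIF alpha subunits (left) and prolyl hydroxylases (right), with the metastatic xenograft left of the primary in each panel, 1 library each. The alpha stack is 108 FPKM in the metastatic and 181 in the primary tumor, and the hydroxylase stack 233 (metastatic) and 204 (primary), with EGLN3 a thin layer of 0.741 FPKM in the metastatic tumor.

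Genes for the other parts of the VHL ligase and for HIF protein turnover were mostly within 2-fold. Past 2-fold, 2 of 16 expressed genes were higher, or 12.5%, near the 9.22% of all entries, and 0 were lower, against 9.35%. The median log2 ratio was 0.22, against 0.03 over all entries. With the sums of both libraries made equal, it was 0.064, against -0.13 over all entries. ELOC, elongin C, which joins VHL to the ligase, had 239 FPKM in the metastatic and 105 in the primary tumor. Its partner ELOB had 501 (metastatic) and 258 FPKM (primary), a log2 ratio of 0.96. STUB1, a chaperone-linked ubiquitin ligase, had 325 (metastatic) and 159 FPKM (primary), and the chaperone HSP90AA1, which protects HIF-1 alpha, had 588 (metastatic) and 336 (primary). ELOC stood at 15.4 times the VHL level in the metastatic and 4.80 times in the primary library. Under each of the 3 scalings tried, 1 gene was higher past 2-fold. With the length trend removed, 1 of the 15 genes with a mouse length was. The cullin scaffold CUL2, at 23.8 (metastatic) and 25.5 FPKM (primary), and the ring protein RBX1, at 111 (metastatic) and 72.6 (primary), were within 2-fold.

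Among HIF partners and coactivators, 2 of 13 expressed genes were higher past 2-fold, or 15.4%, and 1 was lower, or 7.69%. These shares are near the 9.22% and 9.35% of all entries, and the median was -0.27. The acetyltransferase EP300, which HIF alpha recruits, had 6.16 FPKM in the metastatic and 15.7 in the primary tumor, a log2 ratio of -1.23. CITED2, which competes with HIF alpha for EP300, had 45.9 (metastatic) and 90.9 FPKM (primary), a log2 ratio of -0.97. RUVBL1, an ATPase of chromatin remodelling complexes, had 79.2 (metastatic) and 29.7 FPKM (primary), and the remodeller SMARCA4 had 519 (metastatic) and 231 (primary). After rescaling to the same sum, 1 gene was higher and 4 were lower.

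Other members of the bHLH-PAS family, the class that HIF subunits belong to, were listed together with the PAS-domain PER genes and were mostly low. The count and median below include PER2, at a log2 ratio of -0.54, and PER3, at -0.47. Among 8 expressed genes 0 were higher past 2-fold and 1 was lower, or 12.5%, near the 9.35% of all entries, and the median was -0.32. Without the length trend 0 were lower. AHR, the aryl hydrocarbon receptor, which also pairs with ARNT, had 4.999 FPKM in the metastatic and 11.8 in the primary tumor, a log2 ratio of -1.09. The clock factor NPAS2 had the highest level of the list, with 79.0 (metastatic) and 81.6 FPKM (primary). PER2 stood at 4.38 FPKM in the metastatic and 6.84 in the primary tumor, NPAS1 at 3.43 (metastatic) and 5.24 (primary), and PER3 at 0.842 (metastatic) and 1.54 (primary), none of which passed 2-fold.

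Other 2-oxoglutarate oxygenases, which use the same cofactors as the EGLN enzymes, included several known hypoxia-inducible genes on the lower side. Of 42 expressed genes, 8 were lower past 2-fold, or 19.0%, against 9.35% of all entries. Another 2 were higher, or 4.76%, against 9.22%, and the median was -0.17. The collagen hydroxylase P3H2 had 7.18 FPKM in the metastatic and 43.3 in the primary tumor, and the lysyl hydroxylase PLOD2 had 23.3 (metastatic) and 89.9 (primary). The histone demethylase KDM3A had 10.01 (metastatic) and 42.9 FPKM (primary), and the collagen prolyl hydroxylase P4HA1 had 39.4 (metastatic) and 125 (primary). The RNA demethylase FTO, at 9.62 (metastatic) and 24.7 (primary), TET1, at 1.29 (metastatic) and 4.18 (primary), KDM4C, at 7.53 (metastatic) and 17.9 (primary), and KDM4B, at 2.67 (metastatic) and 7.06 (primary), completed the lower genes. JMJD6, at 35.3 (metastatic) and 11.2 FPKM (primary), and JMJD4, at 22.5 (metastatic) and 9.09 (primary), were the 2 higher ones. KDM3A, KDM4B, P4HA1 and P4HA2 also stand in the list of HIF targets.

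Genes for the metabolites and iron that the hydroxylases depend on were called about as often as other genes. The hydroxylases need iron and 2-oxoglutarate and are inhibited by succinate, fumarate and 2-hydroxyglutarate. Among 16 expressed genes 2 were higher past 2-fold and 2 lower, or 12.5% each way, near the 9.22% and 9.35% of all entries. The median was 0.11. FH, which consumes fumarate, had 88.5 FPKM in the metastatic and 34.3 in the primary tumor, and IDH3B, which makes 2-oxoglutarate, had 139 (metastatic) and 65.1 (primary). D2HGDH, which oxidises 2-hydroxyglutarate, had 10.7 (metastatic) and 26.2 FPKM (primary), and the iron exporter SLC40A1 had 8.81 (metastatic) and 28.0 (primary). The length trend could be removed for 14 of the 16 genes, and of these 0 were then at least 2-fold higher and 2 lower. That count thus differs from the one above also by the genes that had no mouse length.

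HIF target genes were largely on the lower side, as EGLN3 was. Of 40 expressed targets, 24 were lower past 2-fold in the metastatic tumor and 1 was higher, and the median was -1.10, against 9.35% lower, 9.22% higher and a median of 0.03 over all entries. That hypoxia genes were lower in this comparison was known when the list was chosen, so the count is no independent support. The largest in size were CA9, a carbonic anhydrase, at 3.83 FPKM in the metastatic and 97.7 in the primary tumor, and NDUFA4L2, at 5.72 (metastatic) and 135 (primary). NDRG1 followed, at 91.2 (metastatic) and 849 (primary), then PPFIA4 at 0.144 (metastatic) and 7.69 (primary). STC2, a secreted glycoprotein also induced by stress of the endoplasmic reticulum, was the higher gene, at 32.4 (metastatic) and 11.1 FPKM (primary). Without the length trend 21 were lower and 1 higher, among the 37 of these 40 that had a mouse length. Of targets reported for HIF-2 in kidney cancer cells, CCND1 had 26.0 (metastatic) and 23.0 FPKM (primary), within 2-fold, and EPO stood at 0.693 FPKM in both.

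**Figure D4:**
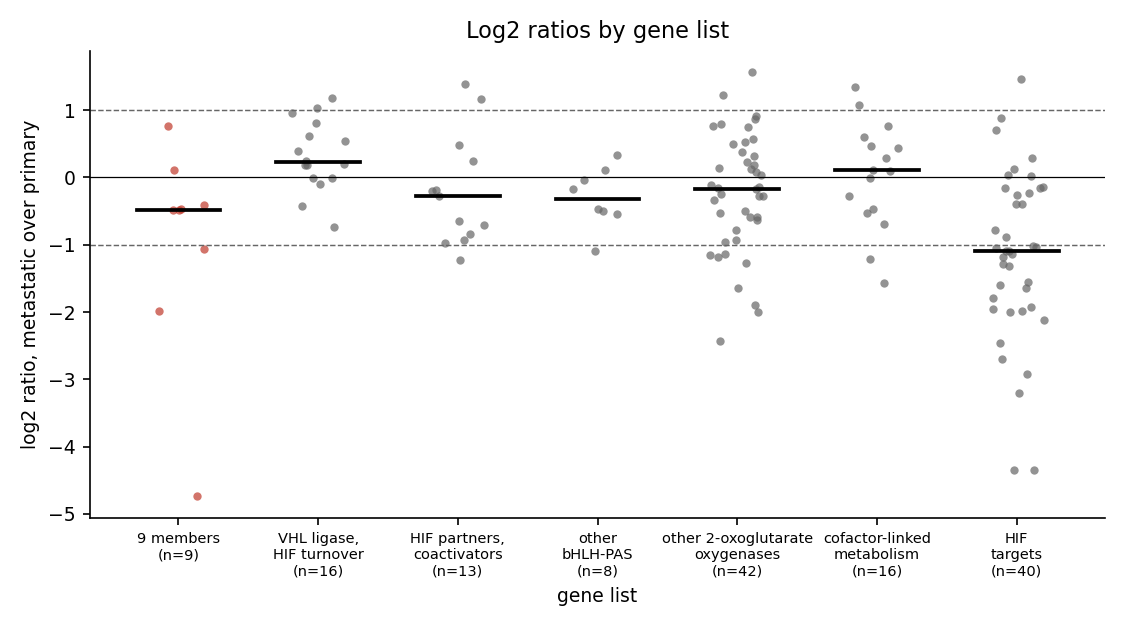
Log2 ratio, metastatic over primary, of the 9 genes and of the expressed genes of 6 related lists, 1 point per gene, with the median as a bar and dashed lines at 2-fold. HIF targets have a median of -1.10 and the 9 genes -0.48, while the VHL ligase list lies at 0.22.

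The genes with log2 ratios nearest to EGLN3, among 6701 candidates of at least 10 FPKM in a library, were FOS at -4.85, RTL1 at -4.63 and FOSB at -4.91. For EGLN1 they were RPS27L, TTC14 and TMEM147, each at 0.76. For HIF1A they were ARRB1, TTC9C and YEATS2 at -0.48, and for EPAS1 CACUL1, TAF1 and NUMBL at -0.41. Likeness here rests on 1 ratio between 2 libraries, and near a ratio of 0 many genes are equally close.

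Genes used as markers of stromal cells also differed in level. The tumors grew in mice while the gene symbols are human. Whether these values come from mouse stroma or from tumor cells therefore cannot be told, and they do not measure stromal content. Past 2-fold, 9.35% of all entries were lower and 9.22% higher, and the marker counts below rest on few genes. Endothelial markers, of interest because endothelium is rich in EPAS1, summed to 5.92 FPKM in the metastatic and 27.2 in the primary tumor over 13 genes, and 2 of the 3 expressed ones were lower past 2-fold. EGFL7 had the highest level of them in both, at 1.58 (metastatic) and 19.1 FPKM (primary). KDR was listed at 0 in both libraries, and CDH5 stood at 0.0144 (metastatic) and 0.152 (primary) and PECAM1 at 0.0833 (metastatic) and 0.237 (primary), beside EPAS1 at 50.5 (metastatic) and 67.2 (primary). Fibroblast markers summed to 180 FPKM in the metastatic and 560 in the primary tumor over 11 genes, and past 2-fold 5 of the 8 expressed ones were lower and 1 was higher. COL1A2 held most of that sum, at 149 (metastatic) and 474 FPKM (primary), and DCN was the higher one, at 2.89 (metastatic) and 0.370 (primary). POSTN was listed at 0 in the metastatic and stood at 0.176 FPKM in the primary tumor, and THY1 stood at 0.0129 (metastatic) and 0.0174 (primary). Pericyte and smooth muscle markers summed to 123 (metastatic) and 45.4 FPKM (primary) over 8 genes. Past 2-fold, 3 of the 6 expressed ones were higher and 0 lower. MYL9 held most of the metastatic sum, at 81.5 (metastatic) and 12.2 FPKM (primary). TAGLN, at 14.4 (metastatic) and 19.8 (primary), and ACTA2, at 0.206 (metastatic) and 0.441 (primary), were on the lower side. MYH11 was listed at 0 in both. Erythroid markers summed to 99.9 (metastatic) and 36.0 FPKM (primary) over 4 genes, nearly all of it HBB. Leukocyte markers summed to 1.17 (metastatic) and 2.26 FPKM (primary) over 6 genes, with AIF1 at 0 in both. The part of these cells, and of mouse RNA, in the EGLN3, HIF3A and ARNT differences was not tested.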

How the data were processed

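The table of FPKM deposited by the authors has 62573 rows and 1 column for each library, per the file headers. In the submitters' processing notes stand GRCh38, Cufflinks 2.2.1, STAR 2.7.6a and bcl2fastq 2.18.0.12, without saying what each was used for. How mouse reads were handled and which annotation was used is not given in the sources used here. Read depth is unknown, so no interval is given. A gene listed at 0 may be one whose estimate failed, because LDHA, which nearly every cell uses, had 0 in each column.

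Rows sharing a label were added up. A member took the row, alone or merged, that holds its symbol. Of the 9 genes, 6 had rows of their own, 1 shared a row with a clone name and 2 shared rows with other genes. Genes of the related lists found only in loci merged with other genes were left out. The difference was log2((metastatic + 1)/(primary + 1)), unscaled, over entries of at least 1 FPKM in a library. With 1 library per group no test was run. The genes and lists were chosen with earlier results of these data known.

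Named genes were the 9 genes, up to 4 of the largest absolute log2 ratio in each list, the 3 genes of at least 10 FPKM nearest in ratio to EGLN3, EGLN1, HIF1A and EPAS1, and antisense RNAs of the 9 genes. ARNT2, CUL2, RBX1, NPAS2, FTO, TET1, KDM4B, KDM4C, JMJD4, JMJD6, STC2, the pseudogenes and the cell type markers were singled out after their values were seen. Not every gene under this rule is reported here. Length was that of the longest coding mouse transcript of the same symbol, found for 84.4% of 11118 genes, and its trend was removed by the median of 20 length bins. The fold rule was tested on simulated data, which says nothing about the error of these 2 libraries. The alternatives tried were pseudocounts of 0.1 and of 0.5 FPKM, a filter of 5 FPKM or none, a 4-fold threshold, 3 scalings, the highest of rows with 1 label, all merged loci, and the alpha sum without HIF3A. Python 3.11.15, pandas 2.3.3, numpy 2.4.6 and matplotlib 3.10.9 were used.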

Additional observations from a re-analysis of the deposited data

How the results depend on the processing

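The log2 ratios of EGLN3, HIF3A and ARNT stayed at least 2-fold lower under every pseudocount, filter, scaling and row rule tried, from -5.76 to -4.74 for EGLN3. With the length trend removed, an alternative chosen after seeing the data, ARNT stood at -0.99, within 2-fold. EGLN2 turned to -0.068 after rescaling to the same sum and to -0.085 without the length trend. The difference in HIF alpha over hydroxylase was -0.93 and became -1.12 without HIF1A and EGLN2, also chosen later. With HIF3A left out it was -0.64. The share of EGLN3 in the metastatic hydroxylase sum was 0.530% with 0.5 FPKM added to each gene and 0.739% with 1 FPKM added. With EGLN2 left out, also chosen later, that share was 0.437%, and the primary share was 31.4%. Of all entries, 859 were at least 2-fold lower with a filter of 5 FPKM, against 1291 with 1 FPKM. Past 4-fold, 165 entries were higher and 259 lower. The median of cofactor genes turned to -0.052 after rescaling to the same sum, where the median of all entries was -0.13. Without the length trend it was also -0.052, over the 14 of 16 genes with a mouse length. Small counts past 2-fold in the lists moved too. Lower coactivators, 1 as reported, were 2 with a pseudocount of 0.1 FPKM or the median ratio set to 1, 3 with upper quartiles made equal and 4 with sums made equal, where higher ones were 1 in place of 2. Higher cofactor genes, 2 as reported, were 1 with sums or upper quartiles made equal. Without the length trend they were 0 of the 14 genes with a mouse length. Higher HIF targets were 2 in place of 1 with a pseudocount of 0.1 FPKM, and lower bHLH-PAS genes, 1 as reported, were 2 with all merged loci and 0 without the length trend. Higher VHL ligase genes were 1 in place of 2 under each scaling, and 1 of the 15 genes with a mouse length without the length trend. No paired analysis was possible because each group held 1 library and no result comes from a test. Leaving out a library was not possible for the same reason. Depth is unknown, so no counting error can be given for the EGLN3 level below 1 FPKM in the metastatic tumor.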
